A study of Mus musculus with 4 samples.

Results

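Binding of DNMT3B, an enzyme that adds methyl groups to cytosines, was examined at 10 genes whose products pass a Wnt signal on inside the cell: Dvl1, Dvl2, Dvl3, Axin1, Axin2, Apc, Ctnnb1, Lef1, Tcf7 and Tcf7l2. These 10 genes were chosen by name from 21631 protein-coding genes, and each was looked up in both deposited lists of the series. Chromatin immunoprecipitation with sequencing (ChIP-seq) was done on lung metastases of 4T1, a mouse mammary tumour line grown in BALB/c mice. There were 2 libraries from a DNMT3B antibody and 2 input libraries made without antibody, each pair bearing the lung numbers 3 and 5. All 4 share the line, the strain and the organ, and the labels do not say how far host lung cells were removed or whether the lungs came from different mice. The MACS list holds narrow regions and the SICER list broad islands, both for the series as a whole. They give positions and gene names but no read counts, scores or p-values. The depth of the libraries is therefore unknown, and no value has a replicate error.

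The 10 genes held 3 of 1704 narrow regions and 15 of 8242 broad islands. Dvl1, Dvl3 and Tcf7 were named by both lists, Axin1, Axin2 and Tcf7l2 by the island list alone, and Dvl2, Apc, Ctnnb1 and Lef1 by neither. The MACS list named 3 of the 10 genes (30%), against 6.21% of all protein-coding genes. The SICER list named 6 (60%), against 17.4%. Both lists named 3 (30%), against 2.49%. The genes were picked for their place in a pathway already seen to carry calls in these data, so these shares describe the genes and no test was made of them.

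In the canonical Wnt pathway a ligand bound to Frizzled and an LRP co-receptor recruits Dishevelled proteins, encoded by Dvl1, Dvl2 and Dvl3. Dishevelled blocks a destruction complex built on the scaffold Axin with the tumour suppressor Apc, which otherwise marks beta-catenin (Ctnnb1) for degradation. Beta-catenin then enters the nucleus and switches on genes with Lef1, Tcf7 or Tcf7l2, and Axin2, Lef1 and Tcf7 are themselves well known targets of the pathway. In mouse embryonic stem cells DNMT3B is known to bind the bodies of transcribed genes. DNA methylation was not measured here.

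Calls within 1 kb of a gene start were found at Dvl1 and Tcf7, and the promoters of both are printed because DNMT3B acts on CpG sites. Each runs 5′ to 3′ on the strand of the gene, from 250 bases before a start in the RefSeq promoter table to 50 after it, with CpG sites in capitals. Their coordinates are those of GRCm38, which are not the gene positions that the deposited lists use. The table start of Dvl1 is the outer edge of its RefSeq gene span. The table has 2 starts for Tcf7, which lie 369 and 788 bp inside the RefSeq gene span, so both printed Tcf7 stretches lie within the gene span and the sequence before its outer edge is not shown. The sequences differ in CpG sites, with 35 at Dvl1, 45 at the first Tcf7 start and 17 at the second.
Dvl1, chr4:155847152-155847451, plus strand: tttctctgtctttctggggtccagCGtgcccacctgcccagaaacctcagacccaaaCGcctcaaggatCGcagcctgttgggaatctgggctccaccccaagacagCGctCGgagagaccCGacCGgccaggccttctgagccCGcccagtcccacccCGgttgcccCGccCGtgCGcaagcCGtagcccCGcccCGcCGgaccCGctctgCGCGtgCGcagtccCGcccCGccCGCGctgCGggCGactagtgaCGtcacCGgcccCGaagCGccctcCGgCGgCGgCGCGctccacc
Tcf7 first start, chr11:52282965-52283264, minus strand: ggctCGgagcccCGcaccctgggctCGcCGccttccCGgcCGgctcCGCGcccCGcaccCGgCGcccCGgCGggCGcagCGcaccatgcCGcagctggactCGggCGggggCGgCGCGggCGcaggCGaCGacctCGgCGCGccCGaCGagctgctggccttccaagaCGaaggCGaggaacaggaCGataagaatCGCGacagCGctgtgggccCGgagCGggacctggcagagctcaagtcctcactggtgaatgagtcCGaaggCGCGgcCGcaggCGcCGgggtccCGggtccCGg
Tcf7 second start, chr11:52282546-52282845, minus strand: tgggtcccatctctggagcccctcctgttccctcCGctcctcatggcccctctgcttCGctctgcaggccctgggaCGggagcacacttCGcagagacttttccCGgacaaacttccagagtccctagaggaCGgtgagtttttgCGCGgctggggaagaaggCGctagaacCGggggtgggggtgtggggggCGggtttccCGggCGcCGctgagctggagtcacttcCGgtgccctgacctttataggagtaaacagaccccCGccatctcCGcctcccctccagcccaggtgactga

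CpG sites were numerous in the promoters of transducer genes that a list named and of some that neither named. RefSeq promoters were at hand for 8 of the 10 genes, Axin1 and Apc excepted, with 14 table starts in all. That of Axin2 lies 2521 bp inside its gene span. Their median was 25.5 CpG sites in 300 bases, against a median of 13 (quartiles 4 and 25) over 21045 promoters of protein-coding genes. Ctnnb1, which neither list named, had the most, with 46 and 51 sites at its 2 starts. Dvl3 had 30 sites, Axin2 31 and Dvl2 20. Tcf7l2 had 34 sites at one start and 7 at the other, which lies 153524 bp inside the gene span. The 4 starts of Lef1 had 21, 18, 8 and 5, and those with 8 and 5 lie 2494 and 45997 bp inside its span. The stretches of the Lef1 starts with 21 and 18 sites overlap, as do those of Ctnnb1, so the medians count some bases more than once. The median ratio of observed to expected CpG sites was 0.759 at the 14 starts, against 0.574 over all promoters. With calls at 2 gene starts, promoter composition could not be set against the calls.

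**Figure D1:**
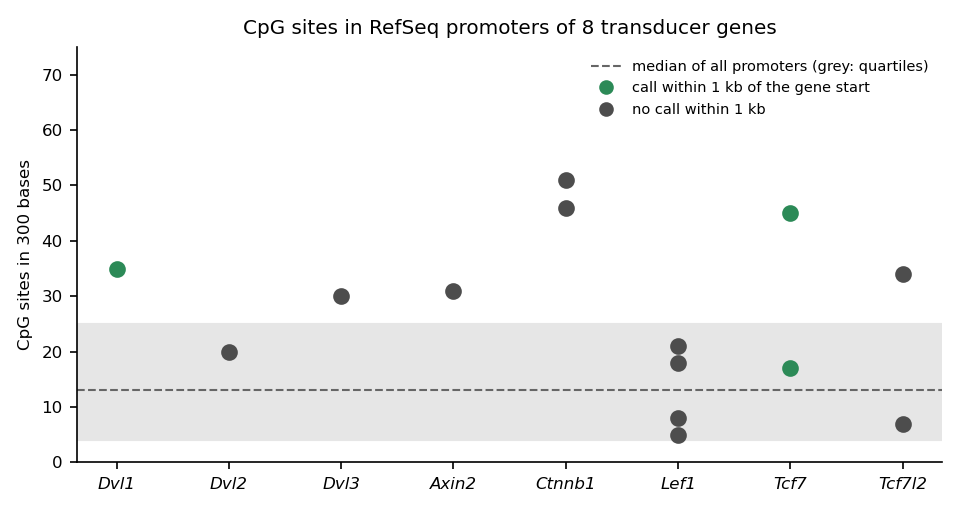
CpG sites (y axis, count in 300 bases) in the RefSeq promoters of 8 transducer genes (x axis), with 1 point for each start. Green points are genes with a call within 1 kb of the deposited gene start. The dashed line is the median of all promoters, 13, and the grey band runs between the quartiles 4 and 25. Both starts of Ctnnb1 and 1 start of Tcf7 lie above 40.

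Of the Dishevelled genes, which encode the adaptors that relay the signal from the receptor, Dvl1 and Dvl3 were named by both lists and Dvl2 by neither. In Dvl1, on the plus strand of chromosome 4 from 155221520 to 155233412 (transcript NM_010091), the calls lay at opposite ends of the gene. The narrow region stood at 155222000, 480 bp into the gene of 11.9 kb, and was worded as contained within it. Rounding to 1000 bp leaves unknown on which side of the start it lies. The 3 islands lay at the other end. The first ran from 155230200 to 155232399, between 8.68 and 10.9 kb from the start, the second from 155233000 to 155233599 across the gene end, and the third from 155234200 to 155237199 downstream of it. The nearest island was 8.2 kb from the narrow region.

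Dvl3, on the plus strand of chromosome 16 from 20517136 to 20532260 (transcript NM_007889), showed the reverse order. Its island, from 20523400 to 20527999, covered the middle of the gene, 30.4% of its length. Its narrow region, from 20531200 to 20531300, lay 14.1 kb from the start and 1010 bp before the gene end, outside the island by 3.2 kb. The RefSeq gene span of Dvl3 in GRCm38 ends 1.75 kb beyond this deposited end, so how late the region lies depends on the gene end used. By the deposited positions, narrow regions so late in a gene were uncommon. Of 527 regions within island-paired protein-coding genes, 32 (6.07%) fell in the last 10% of the gene and 355 (67.4%) in the first 10%. The Dvl1 region was among the early ones, at 4.04% of the gene length.

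The chromosomes of these genes were called at very different rates. The MACS list named 35.3% of the protein-coding genes of chromosome 16, where Dvl3 lies, 1.81% of those of chromosome 4, where Dvl1 lies, and 11.2% of those of chromosome 11, where Dvl2 lies. The deposited gene start and the outer edge of the GRCm38 gene span were 187 bp apart for Dvl3 and 626 kb apart for Dvl1. Whether the rates of the chromosomes follow such differences in position was not tested, so they cannot be read as differences in binding. Dvl3 was also 1 of a run of called genes. Of the 6 protein-coding neighbours nearest to it in gene order, 3 on each side, 5 were named by the MACS list: Abcc5, Eif2b5, Ap2m1, Abcf3 and Vwa5b2. Of the 6 neighbours of Dvl1, 1 was named by the MACS list, Aurkaip1. None of the 6 neighbours of Dvl2 was named by either list.

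The scaffold genes Axin1 and Axin2, whose products hold the destruction complex together, each carried 3 islands and no narrow region. In Axin1, on the plus strand of chromosome 17 from 26275630 to 26332756 (transcript NM_001159598), the islands gathered around the gene end. One ran from 26324600 to 26329999, between 49.0 and 54.4 kb from the start of this 57.1 kb gene. The others ran from 26333200 to 26337999 and from 26338800 to 26342199, starting 444 bp and 6044 bp beyond the gene end. The islands of Axin2, on the plus strand of chromosome 11 from 108781662 to 108812095 (transcript NM_015732), also lay in the later part of the gene. The first covered 108796800 to 108801799, 15.1 to 20.1 kb from the start of 30.4 kb, the second 108809800 to 108810799, and the third 108811400 to 108813799, across the gene end. Neither scaffold gene had an island within 2 kb of its deposited start. Islands were paired with 22.6% of the protein-coding genes of chromosome 17 and with 31.5% of those of chromosome 11, which also holds Dvl2 and Tcf7.

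Apc, the large tumour suppressor protein of the same complex, and Ctnnb1, which encodes the beta-catenin it controls, were named by neither list. Chromosome 18, which holds Apc, was sparsely called: 4.7% of its protein-coding genes were paired with an island and 4.11% had a narrow region, and none of the 6 neighbours of Apc was named. Of the 6 neighbours of Ctnnb1 on chromosome 9, 3 had islands and 1 a narrow region, against 14.5% and 4% of the protein-coding genes of that chromosome. Rpl14, next to it on one side, had 1 island, and on the other side Ulk4 had 5 islands and 1 narrow region and Trak1 had 10 islands. The island list pairs each island with a single gene, so an island that reaches 2 genes is listed at 1 of them.

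Among the DNA-binding partners of beta-catenin, Tcf7 and Tcf7l2 carried islands and Lef1 no call. Tcf7 lies on the minus strand of chromosome 11 from 52066105 to 52095752 (transcript NM_009331). Its island from 52093000 to 52096399 ran from 647 bp before the gene start to 2.75 kb into the gene, the single island over a gene start among the 15. A second island, from 52070200 to 52073799, lay 22.0 to 25.6 kb into the gene of 29.6 kb. The narrow region that names Tcf7, from 52127700 to 52127800, lay 31.9 kb upstream by the deposited distance. Tcf7 was its nearest gene in the list, but with regions limited to those that overlap a gene or lie up to 5 kb upstream, 2 of the 10 genes remained, against 5.98% of all protein-coding genes.

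Tcf7l2, the longest of the 6 genes with a call at 192 kb, spans 55816299 to 56008145 on the plus strand of chromosome 19 (transcript NM_001142922). Its islands all lay inside it. A pair of narrow ones, from 55857400 to 55858599 and from 55860800 to 55862399, stood 41.1 to 46.1 kb from the start. The widest of all 15, from 55934800 to 55941399, covered 61.8 to 65.2% of the way along the gene. Islands covered 4.9% of the Tcf7l2 body and 9.45% of that of Axin1, but 21.4% of Tcf7, 22% of Dvl1 and of Axin2 and 30.4% of Dvl3. Over 3771 island-paired protein-coding genes the median was 16.5%, with quartiles of 2.44 and 45.6%. Lef1, on chromosome 3, had islands at 2 of its 6 neighbours, Hadh and Sgms2, and its chromosome had islands at 9.16% of protein-coding genes.

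**Figure D2:**
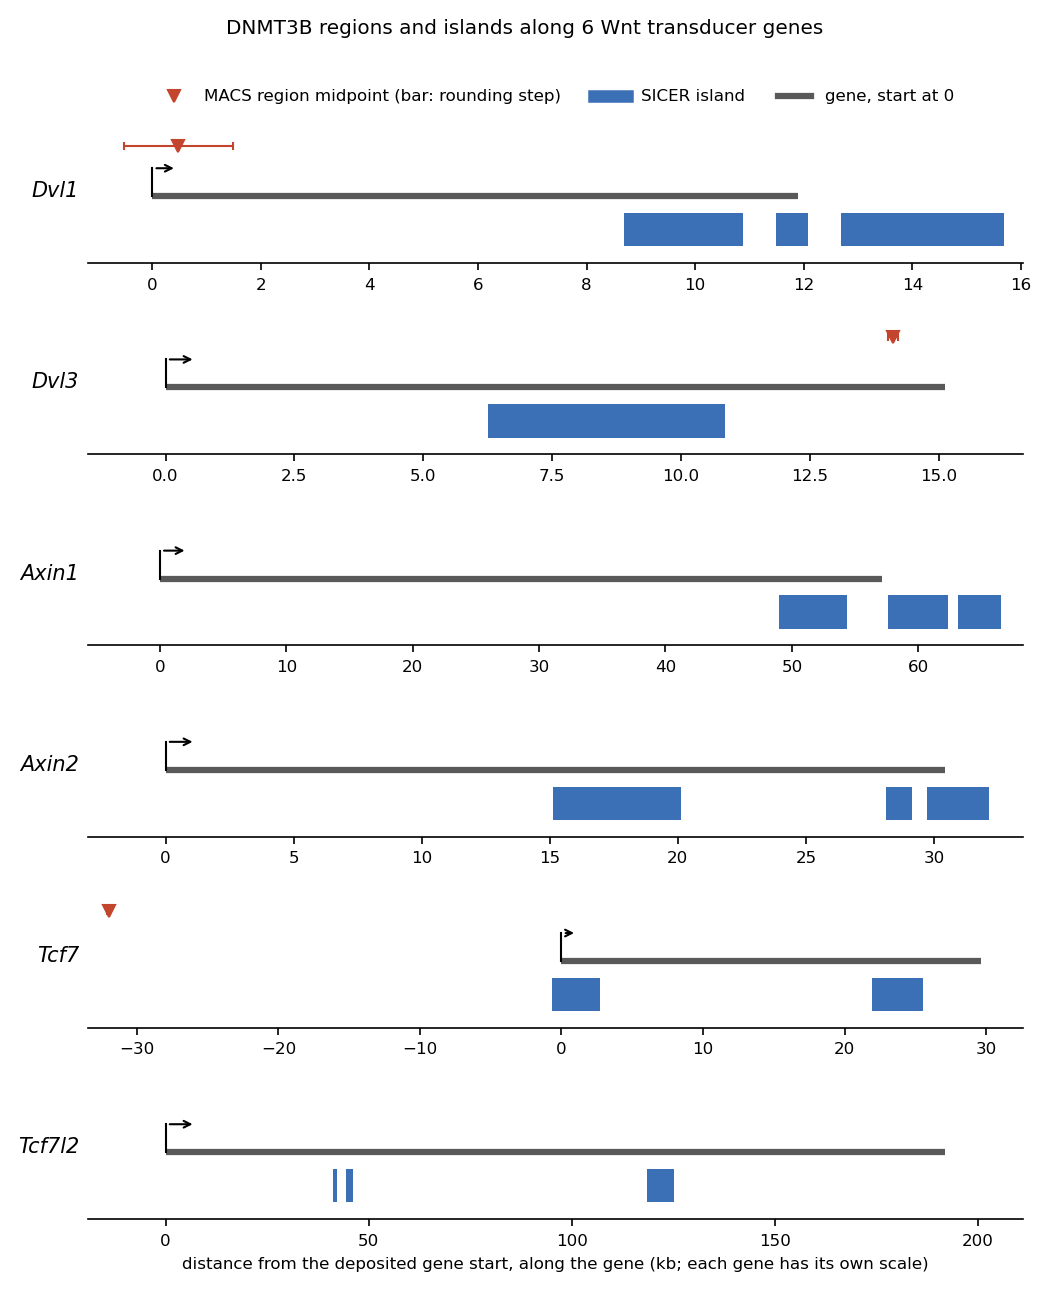
Calls along the 6 transducer genes with at least 1 island, as distance from the deposited gene start in kb (x axis, a separate scale for each gene). Grey lines are genes with an arrow at the start, blue boxes are SICER islands, and red triangles are MACS region midpoints with bars of 1 rounding step on either side. The region of Dvl1 lies at the gene start and its islands at the end, and the islands of Axin1 lie at or beyond the gene end.

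In the deposited gene positions, the islands at these genes leaned towards the later part of the gene. Of the 15, 12 (80%) had their midpoint past the middle of the gene, against 53.8% of all islands, a measure chosen after the positions were seen. The exceptions were the island over the Tcf7 start and the pair in Tcf7l2. By place, 9 islands lay inside the gene (60%, against 46.9% of all islands) and 3 downstream (20%, against 15.7%). A further 2, in Dvl1 and Axin2, crossed the gene end, against 12.8% of all islands over a gene end, and 1 crossed the start, against 15.4% over a gene start. None lay wholly upstream, where 12.3% of all islands did. Islands of 1 gene are not independent, so the 15 amount to 6 genes.

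The transducer genes with islands mostly had several. Of the 6 genes with an island, 4 had 3 islands each, Dvl1, Axin1, Axin2 and Tcf7l2. At least 3 islands were found at 24.7% of all island-paired protein-coding genes, whose median was 1. The 15 islands had a median width of 3400 bp and ranged from 600 to 6600 bp, against a median of 4800 bp (quartiles 3000 and 7600) over all islands. In all, 11 were narrower than that median and 3 wider, 1 each in Axin1, Axin2 and Tcf7l2. The smallest, at the end of Dvl1, was narrower than 8076 of the 8242 islands. Together the 15 covered 48.8 kb.

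**Figure D3:**
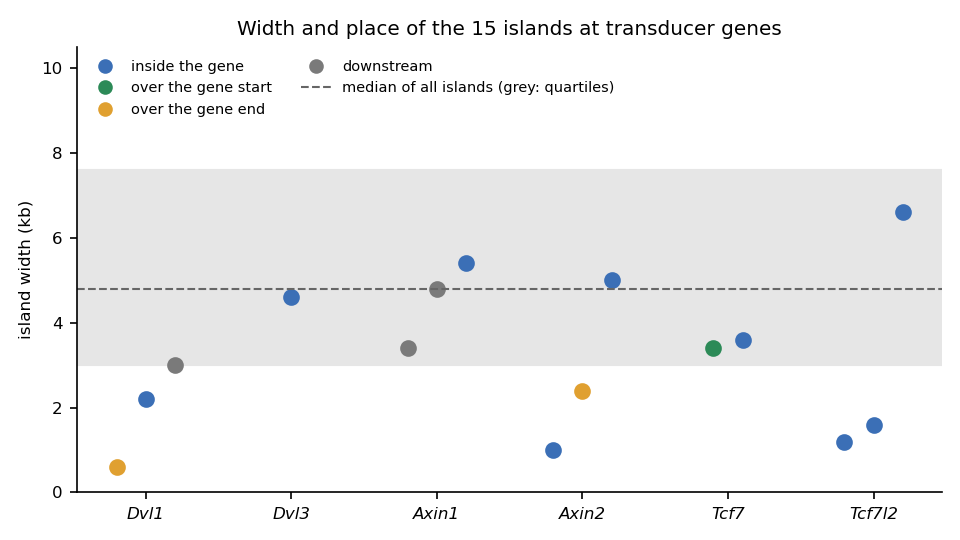
Width in kb (y axis) of each of the 15 islands at the 6 transducer genes named on the x axis, coloured by place along the gene. The dashed line is the median of all islands, 4.8 kb, and the grey band runs between the quartiles. Only 3 points lie above the line.

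Narrow and broad calls did not meet at these genes. None of the 3 narrow regions shared a base with an island, against 30.6% of all narrow regions (521 of 1704). None of the 15 islands held a narrow region, against 4.82% of all islands (397 of 8242). A count of 0 in 3 allows a share of up to 70.8% (exact 95% binomial interval, counting error only), so the count of narrow regions cannot be told apart from the whole list. No interval was computed for the 15 islands, and islands of 1 gene are not independent. In the MACS list the Dvl1 region stood on 6 lines, that of Dvl3 on 3 and that of Tcf7 on 1. Across the list 158 regions stood on at least 6 lines and 862 on a single line. No source used here says what the repeated lines stand for.

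Other Wnt pathway genes were grouped by role in 6 lists, in which a gene can stand more than once. Outside the 10 genes, 19 of 122 pathway genes (15.6%) were named by the MACS list, 40 (32.8%) by the SICER list and 11 (9.02%) by both. Over all protein-coding genes these shares were 6.21%, 17.4% and 2.49%. Islands were paired with 11 of 23 ligand genes (47.8%), 8 of 20 receptor genes (40%), 8 of 23 nuclear cofactor genes (34.8%), 6 of 18 target genes (33.3%), 6 of 28 other cytoplasmic genes (21.4%) and 3 of 15 secreted inhibitor genes (20%). Narrow regions named 4 of the secreted inhibitors (26.7%), 5 of the receptors (25%), 3 of the targets (16.7%), 3 of the ligands (13%), 3 of the other cytoplasmic genes (10.7%) and 2 of the nuclear cofactors (8.7%). No test of these differences was made.

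**Figure D4:**
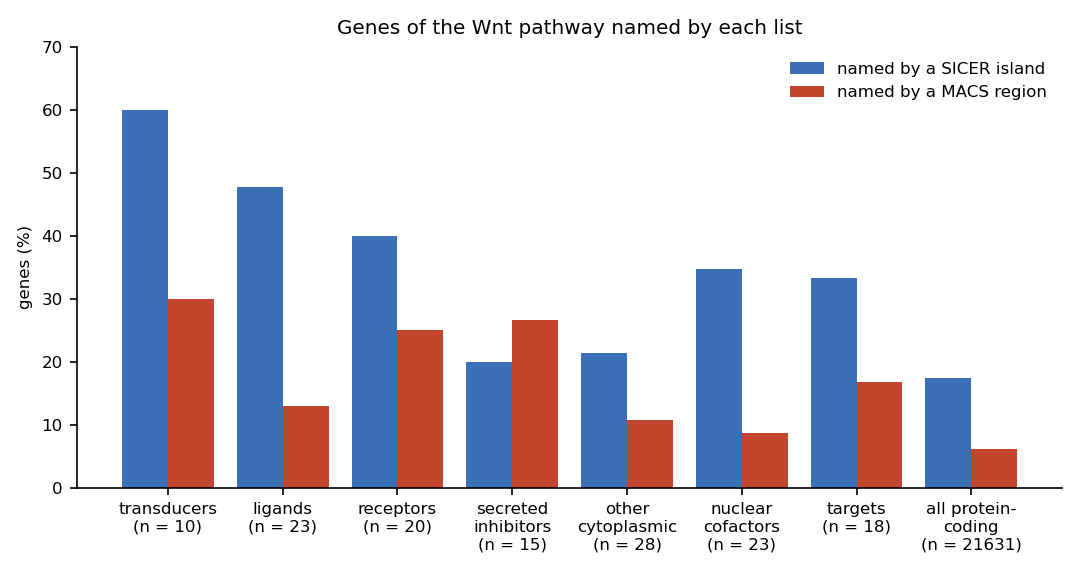
Share of genes (y axis, percent) named by a SICER island (blue) and by a MACS region (red), for the transducers, 6 other lists of Wnt pathway genes and all protein-coding genes, with the number of genes under each. The transducers stand at 60% and 30%, and all protein-coding genes at 17.4% and 6.21%.

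The list of other cytoplasmic genes holds 8 genes of the GSK3 and casein kinase families, which include the kinases of the destruction complex. This grouping was made after their values were seen. Of the 8, 2 had a narrow region and 3 an island, against 6.21% and 17.4% of all protein-coding genes. Gsk3a, Csnk1a1, Csnk1g1 and Csnk1g3 had neither. Gsk3b, which phosphorylates beta-catenin, had a narrow region on chromosome 16 from 38089600 to 38089900 and no island. On that chromosome the MACS list named 35.3% of protein-coding genes. Csnk1e had 2 islands and no narrow region. Csnk1d had 3 islands and no narrow region, and so did Nkd1, a Dishevelled antagonist that the pathway induces, and the nuclear cofactors Ruvbl1 and Smarca4. These 4 share the counts of Axin1, Axin2 and Tcf7l2. The genes that share the 1 region and 1 island of Dvl3 were Fzd2, Fzd5, Fzd9 and Sfrp1, and no pathway gene shared the counts of Dvl1 or Tcf7. The single pathway gene with more islands than Wnt3, which had 8, was the co-receptor gene Lrp5 with 11. Csnk1g2, another of the casein kinase genes, had 2 narrow regions and 1 island. The MACS list put 1 of the regions, from 80085300 to 80085400, 125 bp upstream of the gene. The island, from 80085800 to 80089399, lay at -6600 to -3001 bp from the gene start in the SICER list. The lists thus use different starts for this gene.

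Among pathway genes with both calls, narrow regions lay inside islands at some genes. In Fzd1 both regions did, in Fzd5, Fzd9 and Wnt7a the single region did, and in Vegfa, an angiogenic factor gene, 2 of 3 did. Regions at Fzd2, Wnt3, Wnt3a, Sfrp1, Kremen1 and Csnk1g2 lay outside islands as written, as those of the transducers did. The Fzd2 region, written as 102468000, is rounded to 1000 bp and its island ends at 102467799. Whether that region lies in the island is therefore unknown. Both regions of Fosl1, a target gene with no paired island of its own, lay in islands. The remaining genes with at least 3 islands were Wnt7b, Wnt9a, Wnt9b, Lgr6 and Ccdc88c.

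How far a call belongs to a gene depends on the gene positions used, which differ from those of GRCm38 although the submitters' processing notes name mm10, the same assembly. The deposited start of Dvl3 minus the outer edge of its GRCm38 gene span was 187 bp, so its calls fall in Dvl3 on either set of positions. The GRCm38 gene span of Dvl3 ends 1.75 kb beyond the deposited gene end. The outer edge of the GRCm38 gene span minus the deposited start was 626 kb for Dvl1, 188 kb for Tcf7, 136 kb for Axin2, -74.5 kb for Tcf7l2 and -144 kb for Axin1. Where the sets differed by over 5 kb, a narrow region lay within 1 kb of 8.69% of 2796 deposited gene starts and of 1.25% of the nearest starts of the same genes in GRCm38. For island midpoints these shares were 15.1% and 3.36%. Those genes were listed because an island lay near them in the deposited positions. This favours the deposited starts for islands, and can also for narrow regions, of which 30.6% share a base with an island. Chromosomes differed. On chromosome 11, 116 of 225 narrow regions lay within 1 kb of a deposited start and 27 within 1 kb of a GRCm38 start, and on chromosome 17 the counts were 46 and 17 of 118. On chromosome 19, which holds Tcf7l2, they were 58 and 63 of 129, and on chromosome 16, which holds Dvl3, 130 and 242 of 334. Deposited starts are known only for genes paired with islands or with a region just upstream, so the counts at deposited starts are lower counts. These genes are known through calls placed near them, so their counts do not compare on equal terms with those at GRCm38 starts.

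The narrow region of Dvl1 could be read in both ways. Taken as a GRCm38 position, it lies within 1 kb of the start of Ski, whose product represses TGF-beta signalling. On chromosome 4, 8 of 28 narrow regions lay within 1 kb of a deposited gene start and 5 within 1 kb of a GRCm38 start, and this was the 1 region counted in both. To which gene the region belongs was not settled. Taken as GRCm38 positions, the 2 narrow islands of Tcf7l2 stayed in that gene, and narrow regions overlapped 2 of the 10 genes (Ctnnb1 and Dvl3) and islands 3 (Axin1, Dvl3 and Tcf7l2). No share over all protein-coding genes is given for this reading, so whether these counts exceed it is unknown.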

How the data were processed

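Per the submitters' processing notes, the authors aligned reads with Bowtie2 (given as 2.10) to mm10 and called regions with MACS (given as 1.4) and SICER. Thresholds, the use of input and any pooling of libraries are named in no source used here. The deposited values are base positions, distances and lengths. MACS positions carry at most 6 significant digits, and the deposited distance of the Tcf7 region equals the one computed from its rounded position. Lines with equal chromosome, start and end were counted as 1 region, which made 1704 of 4304 lines, after an end written as a question mark was set to the start. SICER starts fall on steps of 200 bp, and all 8242 overlap lengths are those with the gene widened by 10 kb on each side.

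A gene carried a region if the MACS list named it as nearest or overlapping feature, and an island if the SICER list paired it with one. Names were matched to RefSeq (GRCm38.p6) by symbol, transcript or unique synonym, for 1702 of 1704 regions and 8238 of 8242 islands. The background was 21631 protein-coding genes of chromosomes 1 to 19 and X. Overlap required 1 shared bp. All 10 genes are named. Other pathway genes are named where they had both calls, at least 2 regions or at least 3 islands, or counts equal to those of a member. Gsk3b and genes near the members were named after their values were seen. The members and lists were chosen with earlier results of these data known. The code was tested on made-up data with known answers. Python 3.11.15, pandas 2.3.3, numpy 2.4.6 and scipy 1.17.1 were used. No test between libraries was possible, since no value belongs to a library.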

Additional observations from a re-analysis of the deposited data

How the results depend on the processing

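The number of transducer genes with a narrow region, 3 at any distance, was 2 for regions that overlap the gene, with or without 5 kb upstream, and 1 (Dvl1) within 1 kb of the gene start. Their islands were at 6 genes when overlap with the gene body or a midpoint in the body or up to 5 kb upstream was required, and at 1 (Tcf7) when the island had to reach within 2 kb of the gene start. Read as GRCm38 positions, a choice made after seeing the data, islands overlapped 3. Other pathway genes with a narrow region numbered 19 as listed, 7 within 1 kb of the gene start and 7 in the GRCm38 reading. Those with an island numbered 40 as listed, 16 within 2 kb of the gene start and 21 in the GRCm38 reading. Each stricter setting counts fewer calls by its construction. No share over all protein-coding genes is given for the counts at gene starts or in the GRCm38 reading, so these have no background. The count of 0 narrow regions in islands held with at least 50% of the width shared, with regions widened by their rounding step and with every line counted. The median island width, 3400 bp, was 2900 bp for islands overlapping the gene body and 4800 bp for the widest island of each gene. Islands past the middle of the gene numbered 12 of 15, or 9 among those overlapping the body, which leaves out the 3 downstream islands. A stricter score threshold could not be tried because neither list gives a score. No paired analysis was possible because neither list gives a value for a library, and leaving out a library was not possible for that reason. Unknown depth limits what the absence of a call shows at Dvl2, Apc, Ctnnb1 and Lef1.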

Other observations

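Calls listed under other genes fall at transducer genes if their positions are taken as GRCm38. On chromosome 9, an island from 120931200 to 120933399 and a narrow region at 120951000, both listed under Ulk4, would lie within 1 kb of a start of Ctnnb1 and inside Ctnnb1. On chromosome 17, 3 islands listed under Rab11fip3 would overlap Axin1: from 26126000 to 26132799, from 26145800 to 26150999 and from 26170000 to 26173999. On chromosome 19, an island from 55783800 to 55795999 listed under 4930552P12Rik would lie in Tcf7l2. In the deposited positions these calls are at the genes they are listed under.

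Around Dvl3, in the deposited positions, 4 narrow regions lay within 50 kb, counting its own. Those of Eif2b5, a translation initiation factor subunit gene, from 20499100 to 20499200, of Ap2m1, a clathrin adaptor gene, from 20535500 to 20535800, and of Abcf3 from 20548700 to 20548800 lay outside islands, as that of Dvl3 did. The Dvl3 island was the single island within that distance. Around Axin2 the 3 islands of the gene were the only calls within 50 kb.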
